A study of Homo sapiens with 9 samples.

Results

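The 4-h response of VDR-expressing HepG2 cells to calcitriol was taken as the difference between 3 arrays of VDR+VitD cells and 3 arrays of VDR cells, which are 6 of the 9 arrays of the series, over all 17687 genes with a symbol. HepG2 is a human hepatoma cell line that keeps many hepatocyte genes active. VDR+VitD cells were given an adenovirus coding for the human vitamin D receptor (Ad-VDR) for 48 h and then received 10 nM calcitriol (VitD), the hormonal form of vitamin D, for 4 h. VDR cells were given Ad-VDR and the vehicle, and CONT cells an adenovirus without insert (Ad-C) and the vehicle. Each of 3 independent experiments gave 1 array of every group, and experiment numbers below are those of the sample titles. All cultures were incubated with an adenovirus, the share of cells that took it up was not measured here, VDR in the cultures with Ad-VDR read far above the line's own level, and no cells with Ad-C received VitD, so that a part of the response that does not need the vector's receptor cannot be told apart from the rest. All values are the authors' log2 RMA values of Clariom S arrays, in which 1 unit is a 2-fold difference, and fold changes are on the same log2 scale unless called fold. RNA came from whole cultures, so fewer cells with a transcript and less of it per cell cannot be told apart.

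VDR is a nuclear receptor. With calcitriol bound, it pairs with a retinoid X receptor (RXR) and sits on DNA at direct repeats of a short core sequence, from where it can raise or lower the transcription of nearby genes. It is best known for calcium and phosphate handling in intestine, kidney and bone, for actions on immune cells and skin, and for a feedback in which it induces CYP24A1, the enzyme that inactivates calcitriol. Hepatocytes normally hold little of it.

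The receptor itself read 17.47, 17.58 and 17.45 in VDR+VitD cells, against 17.87, 17.87 and 17.80 in VDR cells and 6.79, 6.04 and 6.21 in CONT cells. The label of the vector thus held on all 6 arrays, and the difference of -0.35 between VDR+VitD and VDR cells did not pass the test (standard error 0.16, adjusted p = 0.312 from limma). The highest value in the table was 18.24, so that VDR lay close to the top of the scale, where arrays can understate a difference. Array medians lay between 6.16 and 6.20, and precision is limited by the 3 arrays in each group. Of 11 measured hepatocyte markers, only TAT lay below the median gene, and ALB, the gene of albumin, read 16.63, 16.90 and 16.95 in VDR+VitD cells, against 16.75, 16.80 and 16.96 in VDR cells.

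VitD changed 806 of 17687 genes, or 4.56% of them, by the rule of an adjusted p under 0.05 together with a change of more than 1.5-fold, of which 491 (2.78%) rose and 315 (1.78%) fell. Rises were also larger than falls. The median log2 fold change was 0.99 among genes that rose and -0.78 among those that fell, against -0.02 over all genes, and 49.5% of the rises but 21.3% of the falls exceeded 2-fold. Past a log2 change of 2 there were 60 rises and 6 falls, past 3 there were 22 and 0, and past 4 there were 9 and 0. Each called gene had the same sign in 3 of 3 experiments. Of the 806 genes, 782 had no overlap between the 3 VDR+VitD and the 3 VDR arrays, while over all genes 18.3% had none (8.66% with VitD above and 9.69% with VitD below). The 806 genes were called from these same arrays, so their shared sign and lack of overlap follow largely from the selection. A limma test (treat) with 1.5-fold as its null bound, which asks more than that the estimate lies past it, left 168 rises and 36 falls, and the lower genes numbered 151 without experiment 2 and 194 without experiment 1, against 315.

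**Figure D1:**
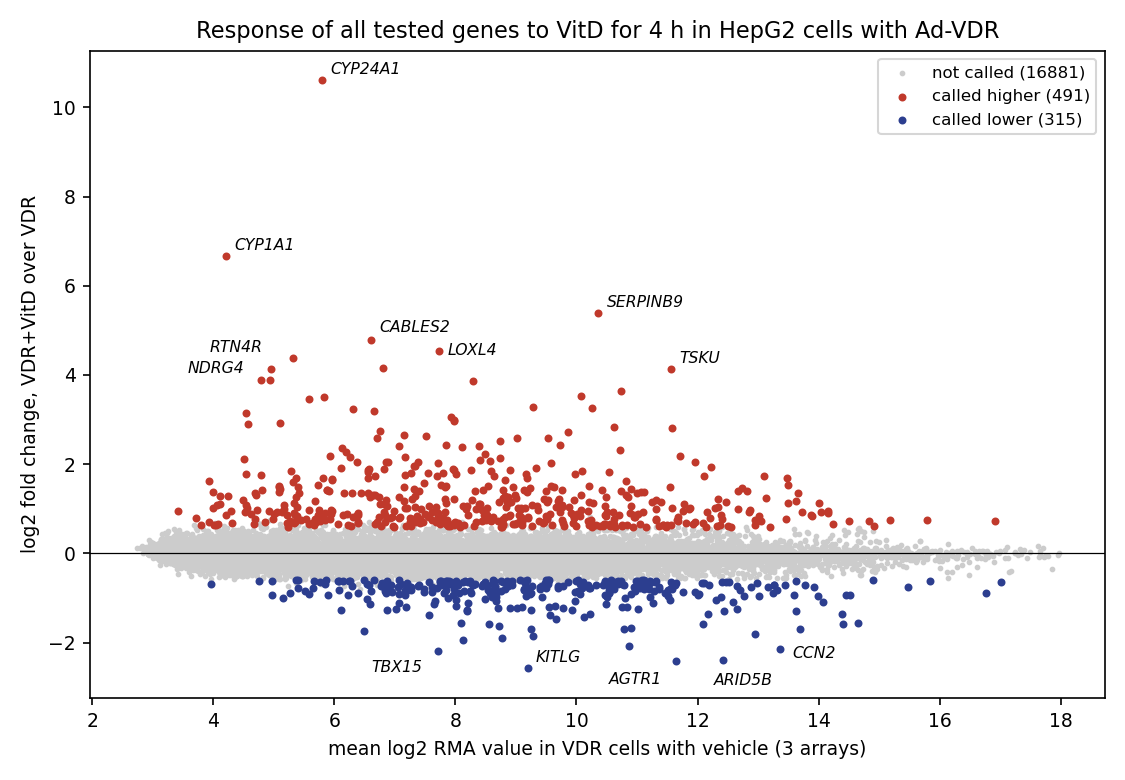
Log2 fold change of VDR+VitD over VDR cells (y axis) against the mean log2 RMA value in VDR cells (x axis) for 17687 genes, with 491 genes called higher in red, 315 called lower in blue and the others in grey. Changes beyond 3 were all rises, and CYP24A1 (10.61) and CYP1A1 (6.67) had the largest.

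Called genes were not spread evenly over expression levels. When the genes were divided into 4 equal bins by their mean in CONT cells, which are outside the comparison, 0.384% of the lowest bin rose and 0.0905% fell, against 4.25% and 3.23% of the highest bin. In the bin between 4.52 and 6.47, 2.22% rose and 0.701% fell. Rises had like sizes in all bins, with medians of 1.01, 1.08, 1.03 and 0.92 from the lowest to the highest. Values near the background understate changes, which limits what a missing call shows for dim genes, and probes differ in their response, so the bins order expression only roughly.

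**Figure D2:**
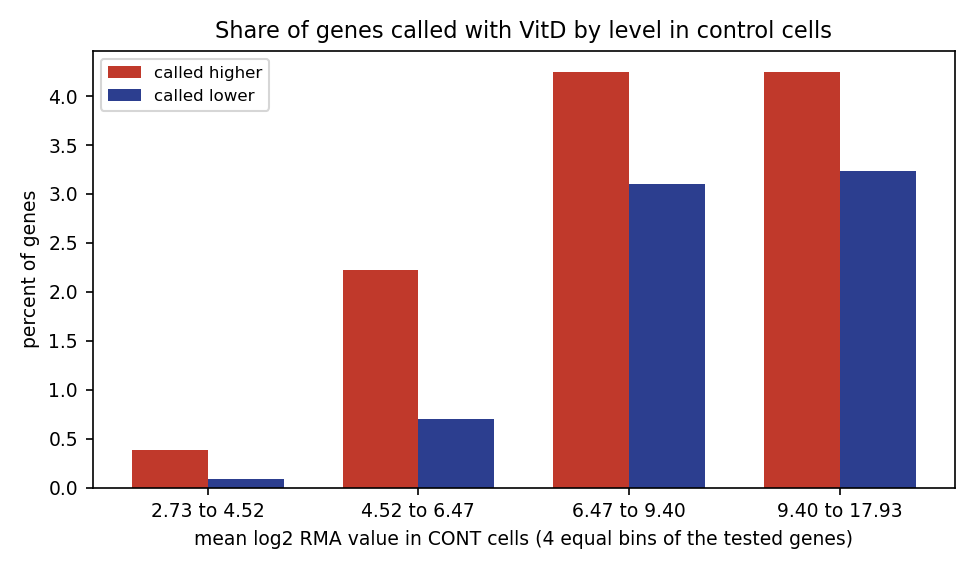
Percent of genes called higher (red) and lower (blue) with VitD in each of 4 equal bins of the tested genes, ordered by the mean log2 RMA value in CONT cells. Both shares were lowest in the dimmest bin (0.384% and 0.0905%) and reached 4.25% and 3.23% in the brightest.

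The largest rise belonged to CYP24A1, which read 16.44, 16.38 and 16.38 in VDR+VitD cells, against 5.25, 6.08 and 6.04 in VDR cells and 6.64, 7.70 and 7.84 in CONT cells. The difference was over 10 units in each experiment (log2 fold change 10.61, standard error 0.20, adjusted p = 1.33e-11 from limma). CYP1A1, a P450 that oxidises aromatic xenobiotics, read 11.05, 11.11 and 10.49 in VDR+VitD cells, against 3.83, 4.55 and 4.26 in VDR cells (6.67, standard error 0.19, adjusted p = 4.91e-10). SERPINB9, an inhibitor of granzyme B, read 15.79, 15.84 and 15.61 in VDR+VitD cells, against 10.21, 10.39 and 10.48 in VDR cells (5.39, standard error 0.13, adjusted p = 1.51e-10). All 3 genes had a range of under 1 unit within VDR+VitD and within VDR arrays. CABLES2, by its name a substrate of the kinases CDK5 and ABL, had a log2 fold change of 4.78, and LOXL4, a lysyl oxidase that cross-links collagen, one of 4.53. RTN4R, the Nogo receptor of neurons, rose by 4.37, SLC6A12, the betaine transporter, by 4.15, NDRG4 by 4.14 and TSKU, a secreted leucine-rich protein, by 4.13. In each of these 9 genes the lowest VDR+VitD array exceeded the highest VDR array by more than the whole range within either group.

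Several of the next genes belong to liver metabolism. NAGS, which makes the activator of the urea cycle, read 12.21, 11.98 and 12.25 in VDR+VitD cells, against 8.29, 8.48 and 8.09 in VDR cells (log2 fold change 3.86). ALAS1, the first and limiting enzyme of haem synthesis, read 13.85, 13.69 and 13.28 in VDR+VitD cells, against 10.01, 10.53 and 9.67 in VDR cells (3.54). ANGPTL8, a secreted regulator of lipoprotein lipase, read 14.37, 14.41 and 14.36 in VDR+VitD cells, against 10.96, 10.76 and 10.48 in VDR cells (3.65). VDR+VitD and VDR arrays did not overlap for any of these genes. TRPV4, a calcium-permeable cation channel, rose by 3.50, OSGIN1, a gene induced by oxidative stress, by 3.28, and CSF1, the growth factor of macrophages, by 3.25. SLC51B, a subunit of the basolateral bile acid exporter, rose by 3.18, KLK6, a secreted serine protease, by 3.15, CEBPA, a C/EBP factor of liver and adipose tissue, by 2.99, and G6PC1, the catalytic subunit that releases free glucose, by 2.97. CYP26A1, which breaks down retinoic acid, rose by 2.92, the membrane protease TMPRSS2 by 2.89, the phosphate transporter SLC20A1 by 2.81, and PHLDA2 and LMTK2 by 2.74 and 2.71. ZNF165, CRYBG2, CYP3A5, MARCHF3 and RHOF, with log2 fold changes of 3.89, 3.88, 3.24, 3.07 and 2.83, and CD14, the lipopolysaccharide co-receptor of monocytes, with 3.45, complete the 30 largest rises. All 30 were called under each alternative setting that tested them, as were the 5 largest falls (the filter on level removed several).

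**Figure D3:**
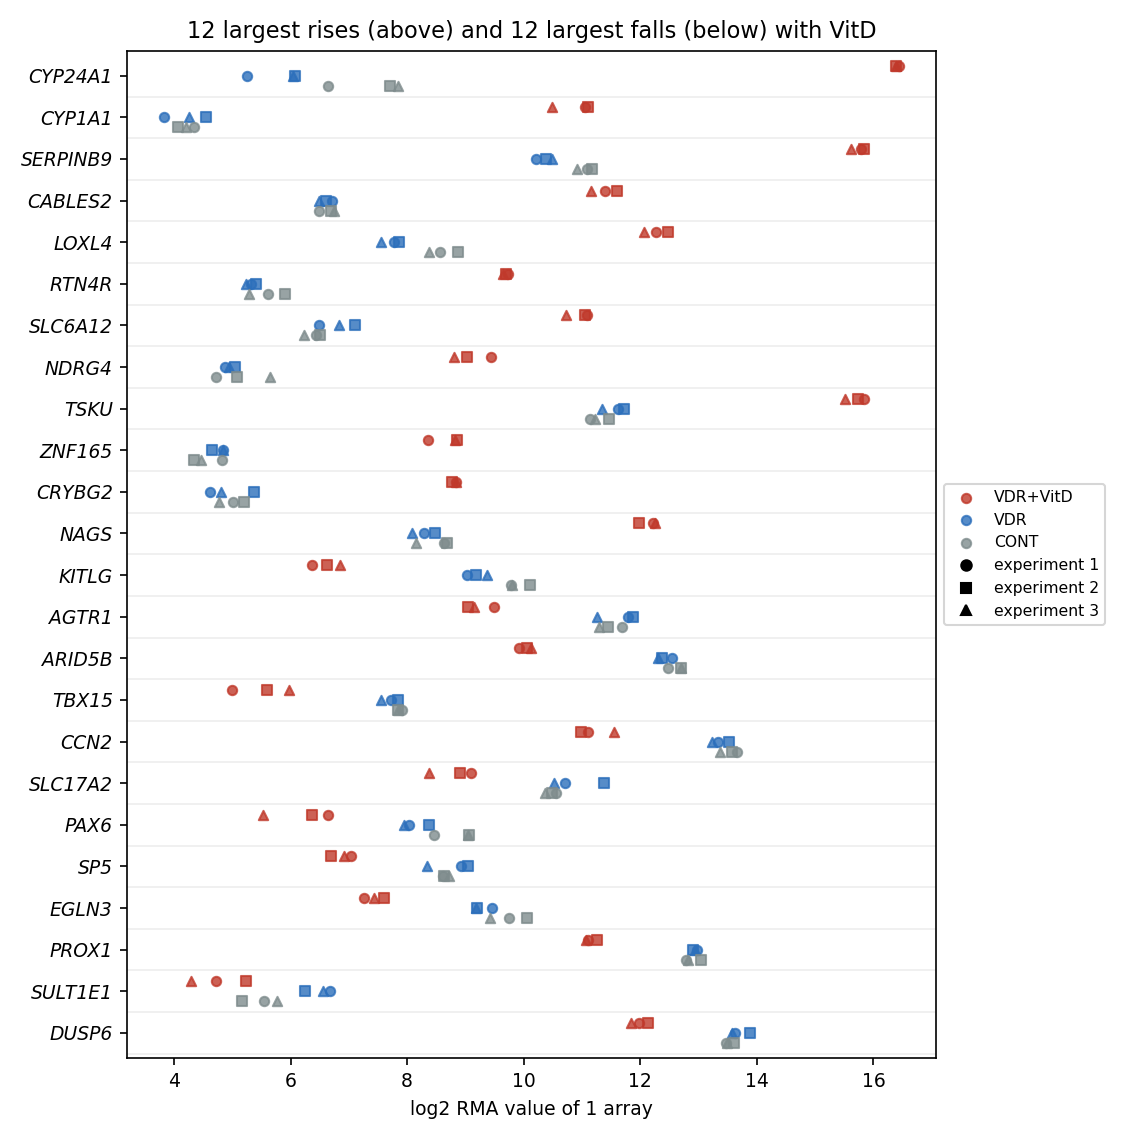
Log2 RMA values of single arrays (x axis) for the 12 genes with the largest rises (upper rows) and the 12 with the largest falls (lower rows), in VDR+VitD cells (red), VDR cells (blue) and CONT cells (grey), with a marker shape for each experiment. VDR+VitD arrays lie apart from VDR arrays in every row, and VDR arrays lie near CONT arrays in most.

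Falls were smaller, and the genes concerned were mostly well expressed before VitD. KITLG, the ligand of the receptor KIT, read 6.36, 6.63 and 6.85 in VDR+VitD cells, against 9.03, 9.18 and 9.37 in VDR cells and 9.79, 10.10 and 9.80 in CONT cells. It had the largest fall of any gene, 5.98-fold (log2 fold change -2.58, standard error 0.14, adjusted p = 1.35e-07 from limma). AGTR1, the angiotensin II receptor type 1, read 9.49, 9.05 and 9.15 in VDR+VitD cells, against 11.79, 11.87 and 11.26 in VDR cells (-2.41). ARID5B, a DNA-binding cofactor, read 9.92, 10.05 and 10.13 in VDR+VitD cells, against 12.55, 12.38 and 12.31 in VDR cells (-2.38). In these 3 genes no VDR+VitD array came within 1.5 units of a VDR array. TBX15, a T-box factor, and CCN2, a matricellular protein, had log2 fold changes of -2.19 and -2.15, and the sodium-phosphate transporter homologue SLC17A2 had -2.08. These 6 were the only falls beyond a log2 change of 2. PAX6, SP5, EGLN3 (a prolyl hydroxylase of the hypoxia pathway), PROX1 and SULT1E1 (the oestrogen sulfotransferase) followed with -1.94, -1.89, -1.85, -1.80 and -1.74. DUSP6, DAB2, FOXA2, ANKRD1 and CXCL8 had -1.71, -1.69, -1.69, -1.67 and -1.62, and FOXA1, THBS1, RHOBTB1, BAAT (which conjugates bile acids) and FILIP1L lay between -1.58 and -1.57. CX3CL1, PDE4D, CBLB, PAQR9, JAG1, SLC2A2, HAMP, CAPRIN2 and TOX3 complete the 30 largest falls with log2 fold changes between -1.46 and -1.29.

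The promoters of called genes were read for the kind of repeat that VDR and RXR bind. The motif searched was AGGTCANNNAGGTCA, a direct repeat of AGGTCA with 3 bases between, on either strand and with at most 3 mismatches in its 12 core bases, in RefSeq windows of GRCh38.p14 from 250 bases before to 50 after a start. Of 626 windows of 385 genes that rose, 116 held it (18.5%), against 58 of 437 windows of 267 genes that fell (13.3%) and 3336 of 20052 windows of all 14236 genes with a window (16.6%). With at most 2 mismatches the counts were 22 (3.51%), 1 (0.229%) and 398 (1.98%), and with at most 4 they were 451 (72.0%), 279 (63.8%) and 14249 (71.1%). The median GC content of the windows was 66.0% for genes that rose, 62.3% for genes that fell and 62.7% for all. Windows of a gene overlap and share sequence, a match is only a description of letters, and the bulk of VDR binding lies outside such short windows, so nothing was read from these shares about VDR. The part of the GC content in the shares was not tested. CYP24A1 is not among the sequences used here.

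Of the 30 largest rises, 23 genes had a window, and 6 of their 28 windows held the repeat (21.4%). Of the 30 largest falls, 23 genes had a window, and 5 of their 50 windows held it (10.0%). Of all windows 16.6% held it. With at most 2 mismatches the counts were 0 of 28 and 0 of 50, against 1.98% of all windows. Every repeat found among these rises and falls thus had 3 mismatches, the most allowed. The 250 bases before the start are printed for 4 of these rises that cover granzyme inhibition, lipoprotein metabolism, innate immunity and phosphate uptake, for CA5A, which had 1 mismatch and was picked after its value was seen, and for the fall SLC17A2. Each runs 5′ to 3′ on the strand of its gene, and capitals mark the 12 core bases.
SERPINB9 (log2 fold change 5.39, minus strand, chr6:2903310-2903559): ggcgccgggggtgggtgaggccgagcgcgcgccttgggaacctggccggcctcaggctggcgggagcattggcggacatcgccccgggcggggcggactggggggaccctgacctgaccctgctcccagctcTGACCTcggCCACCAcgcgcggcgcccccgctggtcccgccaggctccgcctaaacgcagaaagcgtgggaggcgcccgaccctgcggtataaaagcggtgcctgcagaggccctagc
ANGPTL8 (3.65, plus strand, chr19:11239369-11239618): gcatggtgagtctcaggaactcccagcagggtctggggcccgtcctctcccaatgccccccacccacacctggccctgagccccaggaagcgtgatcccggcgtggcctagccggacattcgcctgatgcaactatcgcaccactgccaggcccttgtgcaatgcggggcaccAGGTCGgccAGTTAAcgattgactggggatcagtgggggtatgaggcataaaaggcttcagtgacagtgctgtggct
CD14 (3.45, minus strand, chr5:140633176-140633425): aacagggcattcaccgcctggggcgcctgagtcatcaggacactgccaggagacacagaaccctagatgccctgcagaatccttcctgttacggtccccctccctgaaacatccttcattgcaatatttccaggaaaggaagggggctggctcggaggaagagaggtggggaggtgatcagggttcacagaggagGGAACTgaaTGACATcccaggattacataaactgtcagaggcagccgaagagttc
SLC20A1 (2.81, plus strand, chr2:112645689-112645938): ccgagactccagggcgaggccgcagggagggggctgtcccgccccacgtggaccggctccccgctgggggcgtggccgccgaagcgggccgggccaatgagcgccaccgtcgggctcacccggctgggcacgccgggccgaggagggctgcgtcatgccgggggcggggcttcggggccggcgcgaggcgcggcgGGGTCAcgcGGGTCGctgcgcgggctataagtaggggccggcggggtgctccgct
CA5A (2.17, minus strand, chr16:87936530-87936779): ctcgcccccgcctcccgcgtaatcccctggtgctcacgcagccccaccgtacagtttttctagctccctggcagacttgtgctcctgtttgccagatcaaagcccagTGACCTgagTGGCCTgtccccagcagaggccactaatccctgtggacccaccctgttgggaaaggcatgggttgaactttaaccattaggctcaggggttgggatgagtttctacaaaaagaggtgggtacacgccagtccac
SLC17A2 (-2.08, minus strand, chr6:25925880-25926129): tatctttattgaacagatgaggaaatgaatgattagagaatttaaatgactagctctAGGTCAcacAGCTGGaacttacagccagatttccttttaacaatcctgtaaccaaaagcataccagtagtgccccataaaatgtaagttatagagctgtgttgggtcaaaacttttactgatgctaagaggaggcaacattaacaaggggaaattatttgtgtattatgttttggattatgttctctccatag
In SERPINB9 the repeat, read on the opposite strand as TGGTGGccgAGGTCA, covered positions -118 to -104 from the start, and in CD14, read likewise as ATGTCAttcAGTTCC, positions -55 to -41. In ANGPTL8 it covered -77 to -63 and in SLC20A1 -55 to -41, both on the strand of the gene. CA5A, a mitochondrial carbonic anhydrase of liver, held AGGCCActcAGGTCA on the opposite strand at -143 to -129, and read 8.48, 8.40 and 8.38 in VDR+VitD cells, against 6.17, 6.22 and 6.37 in VDR cells. The other repeats among the 60 genes were in CYP26A1, NDRG4, ARID5B, PDE4D and RHOBTB1.

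Of 9 measured genes that make, carry or break down vitamin D, CYP24A1 alone was called, and the median log2 fold change of the list was 0.07. CYP2R1, the main hepatic 25-hydroxylase, read 5.31, 5.87 and 5.55 in VDR+VitD cells, against 6.47, 5.97 and 6.19 in VDR cells. Its arrays did not overlap, but its difference of -0.63 did not pass the test (standard error 0.24, adjusted p = 0.177). CYP27A1, a mitochondrial sterol and vitamin D hydroxylase, had 0.41 (adjusted p = 0.0868), and CYP3A4, which can also hydroxylate vitamin D, had 0.20 (adjusted p = 0.592) at values between 3.46 and 4.22, near the background. CYP27B1, the renal 1-alpha-hydroxylase, and the uptake receptors CUBN and LRP2 lay at the background as well, with differences of 0.07, 0.04 and 0.03, and PDIA3, proposed as a membrane receptor of calcitriol, had -0.03. Of 13 measured partners and cofactors of VDR, NRIP1, a corepressor of nuclear receptors, rose by 1.11 (standard error 0.13, adjusted p = 1.75e-04) and the other 12 did not pass the test.

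Classical targets of VDR from other tissues were called in 2 of 24 genes of the mineral list (8.33%) and in 8 of 26 of the immune and skin list (30.8%), against 4.56% over all genes. These lists and those below were chosen with earlier results of these data known, so their shares are not independent evidence. The share over all genes also covers dim genes, of which few were called. Of 24 measured targets known from intestine, kidney and bone, SLC20A1 and CLDN2 rose and 22 did not pass the test (median 0.07, against -0.02 over all genes). TRPV6 and S100G, the channel and binding protein of intestinal calcium uptake, had differences of 0.06 and 0.11 at values below 5, and ATP2B1, the plasma membrane calcium pump, had -0.17. CLDN2, a claudin of leaky tight junctions, read 5.99, 6.18 and 6.52 in VDR+VitD cells, against 5.33, 5.04 and 5.79 in VDR cells, and was no longer called when VDR+VitD replicate 2 or 3 or VDR replicate 1 or 2 was left out (0.0729 to 0.116 as adjusted p). Of 26 measured targets from immune cells and skin, 7 rose and 1 fell. CD14 read 8.79, 9.20 and 9.10 in VDR+VitD cells, against 5.80, 5.88 and 5.06 in VDR cells, and KLK6 7.75, 7.99 and 7.33 against 4.50, 4.44 and 4.67. SERPINB1, an inhibitor of neutrophil proteases, rose by 1.62, SEMA6B, a semaphorin, by 1.06 and NINJ1, an adhesion protein, by 0.92. LRRC25 and ADGRE5 had called rises of 0.63 and 0.62. LRRC25 lost its call without any 1 of 6 arrays and ADGRE5 without any 1 of 4. The rises of this list numbered 5 without the experiment as a block and 3 with treat. TNFAIP3, a brake on NF-kappa-B, had the fall, -0.59, which was lost without any 1 of 6 arrays (VDR+VitD replicate 2 or 3, any VDR replicate or CONT replicate 1) and without the experiment as a block.

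Targets of growth control moved in both directions. Of 21 measured, 4 rose and 3 fell (33.3%, against 4.56% over all genes), with a median of -0.04. GADD45B, a stress-induced growth arrest gene, read 10.81, 10.47 and 11.10 in VDR+VitD cells, against 8.12, 8.72 and 8.33 in VDR cells (log2 fold change 2.40, standard error 0.18, adjusted p = 2.42e-06). Its mean in CONT cells, 9.36, lay between those of VDR and VDR+VitD cells. IGFBP6, which binds insulin-like growth factors, rose by 1.35, MXD1, an antagonist of MYC, by 1.32 and CCND1, cyclin D1, by 0.77. GADD45B, IGFBP6 and MXD1 are known as brakes on growth and CCND1 as a promoter of the cell cycle. BCL6, a transcriptional repressor, fell by 0.94, TXNIP, an inhibitor of thioredoxin, by 1.21 and CDKN1A, the inhibitor p21, by 0.61. TXNIP averaged 9.62 in VDR+VitD, 10.83 in VDR and 9.85 in CONT cells, so VDR+VitD cells lay near CONT cells. TXNIP lost its call without VDR+VitD replicate 1 or 3 or VDR replicate 2 (0.0901 to 0.0991 as adjusted p), CDKN1A without VDR+VitD replicate 1 or 2 or VDR replicate 1 or 2 (0.0582 to 0.0951), and the falls of the list numbered 1 without VDR+VitD replicate 1 or VDR replicate 2.

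**Figure D4:**
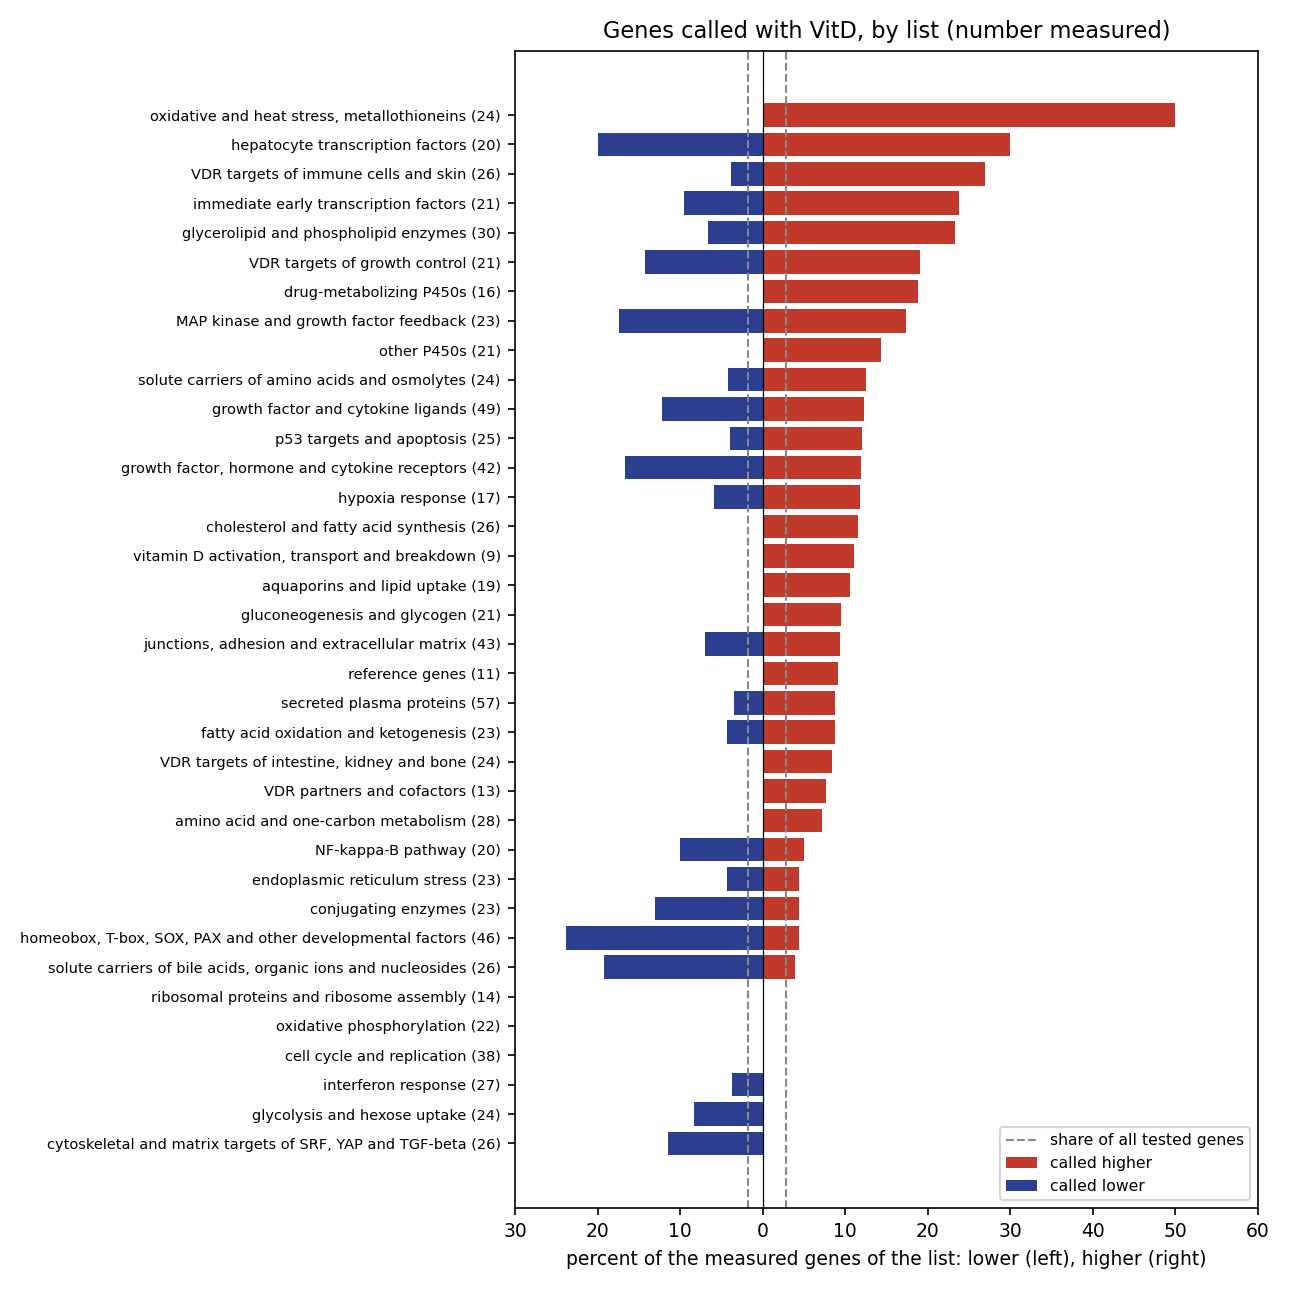
Percent of the measured genes of each list that were called higher (red, right) or lower (blue, left) with VitD, with the number measured in brackets and dashed lines at the shares over all tested genes (2.78% and 1.78%). Oxidative and heat stress with metallothioneins had the largest share of rises (12 of 24) and developmental factors 11 falls of 46. The lists were chosen with earlier results of these data known.

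Genes of the oxidative and heat stress response, with the metallothioneins, formed the list with the largest share of rises. Of 24 measured members, 12 rose and none fell, and the median log2 fold change was 0.45, against -0.02 over all genes, of which 2.78% rose. The rises numbered 9 to 12 without 1 array and 4 with treat. Most of the 12 were metallothioneins, which can share signal, as described below. DNAJB1, a heat shock co-chaperone, read 12.96, 13.08 and 13.11 in VDR+VitD cells, against 10.59, 11.04 and 10.54 in VDR cells (2.33, standard error 0.14, adjusted p = 3.46e-07). TXNRD1, thioredoxin reductase, averaged 14.16 ± 0.16 in VDR+VitD cells and 12.21 ± 0.30 in VDR cells (SD, n = 3 each; 1.94), and SRXN1, sulfiredoxin, read 10.77, 10.39 and 10.15 against 8.59, 8.45 and 8.73 (1.85). HMOX1, the haem-degrading oxygenase, rose by 0.79 and GCLM, a subunit of the glutathione-forming ligase, by 0.77. The response was selective among genes of this kind. NQO1, a quinone reductase often induced together with HMOX1, had -0.05 at values above 15, GCLC, the catalytic partner of GCLM, had -0.11, and the heat shock genes HSP90AA1, HSPH1, HSPB1 and HSPA1A lay between -0.33 and 0.14, none of them past the test.

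Metallothioneins are small proteins that bind zinc and copper. Of 12 measured genes with a metallothionein symbol, the pseudogene MT1IP among them, 9 rose and none fell (75.0%, against 4.56% over all genes). On the list stood 7 of the 9. MT1E read 14.24, 14.17 and 14.26 in VDR+VitD cells, against 12.53, 12.87 and 13.07 in VDR cells and 13.29, 13.28 and 13.44 in CONT cells (log2 fold change 1.40, standard error 0.14, adjusted p = 2.77e-05). MT1G, MT1F, MT1H and MT2A rose by 0.92, 0.85, 0.82 and 0.72, and MT1M and MT1X by 0.64 and 0.61. Outside the list, MT1B and MT1L rose by 0.74 and 0.66, while MT1IP, MT3 and MT4 had 0.47, 0.31 and 0.22 and did not pass the test. VDR cells read below CONT cells in MT2A and MT1G: MT2A read 17.60, 17.70 and 17.62 in VDR+VitD cells, 16.61, 17.08 and 17.07 in VDR cells and 17.39, 17.49 and 17.39 in CONT cells, and MT1G 14.78, 15.13 and 14.95, 13.73, 14.13 and 14.24, and 14.47, 14.57 and 14.45 in the same order. Against CONT cells the VDR+VitD values of MT2A and MT1G were higher by less than against VDR cells. These genes are near-identical in sequence, so signal can be shared among them and 9 calls need not be 9 separate responses. MT1M and MT1X lost their calls without VDR+VitD replicate 1 or 2 or VDR replicate 1 or 2, MT1L without VDR+VitD replicate 2 or VDR replicate 1 or 2, MT2A without VDR+VitD replicate 1 or VDR replicate 1, and MT1B without VDR replicate 1 (adjusted p between 0.0501 and 0.136 over the 5 genes).

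**Figure D5:**
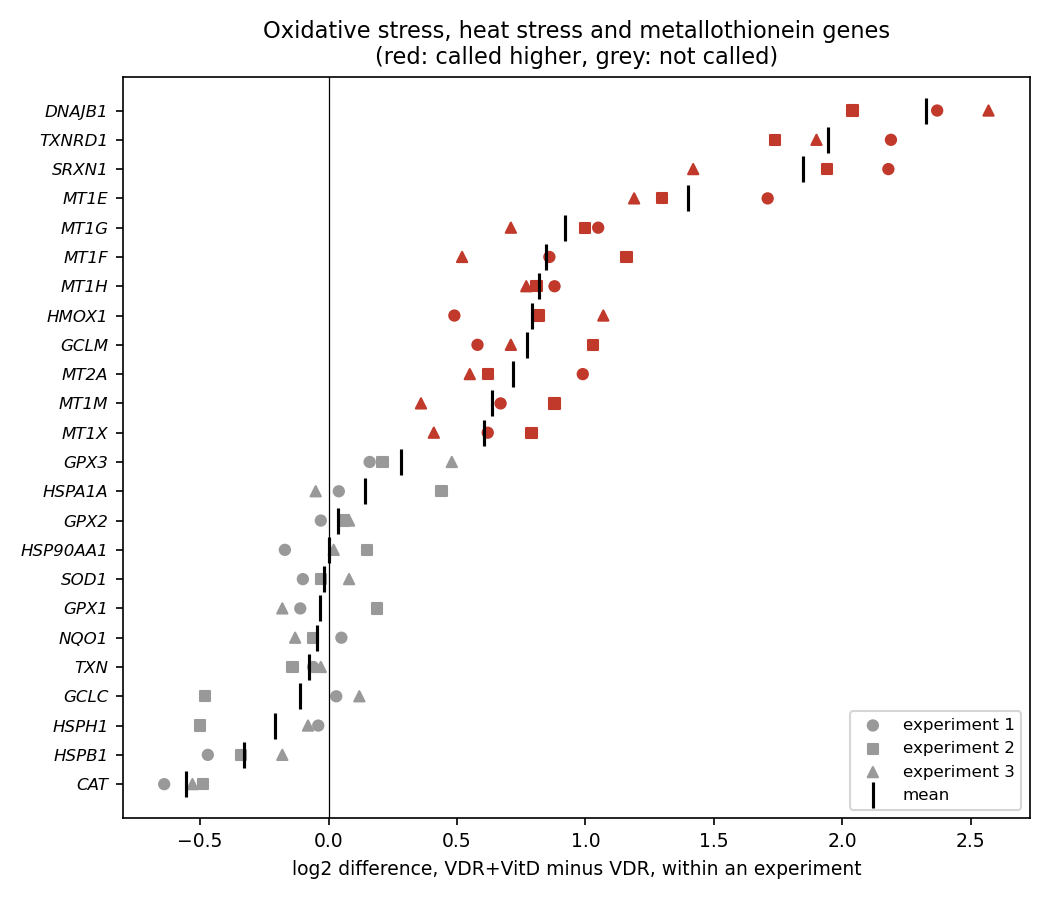
Differences in log2 RMA value between VDR+VitD and VDR cells within experiments 1 to 3 (x axis, marker shapes) for the 24 measured genes of oxidative stress, heat stress and metallothioneins, with the mean as a vertical bar, called genes in red and others in grey. The 12 called genes were positive in 3 of 3 experiments, with DNAJB1 highest (2.33).

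Hepatocyte transcription factors were called in 10 of 20 measured genes (50.0%, against 4.56% over all genes), 6 higher and 4 lower. This list too was chosen with earlier results of these data known. CEBPA read 11.12, 10.82 and 10.99 in VDR+VitD cells, against 7.90, 8.03 and 8.02 in VDR cells and 7.74, 7.39 and 7.83 in CONT cells (log2 fold change 2.99, standard error 0.14, adjusted p = 3.77e-08). NR0B2, the small heterodimer partner that represses bile acid synthesis, read 14.93, 15.13 and 15.02 in VDR+VitD cells, against 13.29, 13.72 and 13.46 in VDR cells (1.54), and CEBPB, an acute-phase factor, read 12.15, 12.11 and 12.11 against 10.84, 10.90 and 10.71 (1.31). CREB3L3, HHEX and ONECUT1 rose by 0.89, 0.77 and 0.68, of which CREB3L3 lost its call without VDR+VitD replicate 1 or 3 or VDR replicate 2 or 3, and ONECUT1 without replicate 2 of either group. In the opposite direction, PROX1 read 11.10, 11.25 and 11.07 in VDR+VitD cells, against 12.98, 12.91 and 12.93 in VDR cells (-1.80), FOXA2 8.92, 9.29 and 9.10 against 10.80, 10.88 and 10.69 (-1.69), and FOXA1 10.59, 10.51 and 10.41 against 12.03, 12.18 and 12.05 (-1.58). FOXA1 and FOXA2 are pioneer factors of liver development, and PROX1 acts in early hepatoblasts. NR5A2, the liver receptor homologue, fell by 0.92.

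Falls outnumbered rises among homeobox, T-box, SOX, PAX and other developmental factors, with 11 lower and 2 higher of 46 listed and measured (28.3% in all, against 4.56% over all genes; median -0.07). The list does not hold every gene of these families. ARID5B and TBX15 are described above. PAX6, a factor of eye and pancreas, read 6.65, 6.36 and 5.53 in VDR+VitD cells, against 8.04, 8.38 and 7.95 in VDR cells, and SP5, a target of Wnt signalling, 7.04, 6.69 and 6.91 against 8.92, 9.05 and 8.34. OTX1, ID2, TBX2 and SIX4 fell by 1.21, 1.09, 1.07 and 1.03, ID1 by 0.94 and MEIS2 by 0.80. SNAI2 also had a called fall, -0.90, which was lost without VDR+VitD replicate 1 or 3 or VDR replicate 1 or 3. HES1, an effector of Notch, and SNAI1, a repressor of epithelial genes, rose by 1.27 and 1.04. Of all 14 measured genes with a T-box symbol, 2 rose and 2 fell (28.6% called). The rises, TBX1 (1.84) and TBX10 (2.37), are not on the list. The list's 11 falls numbered 10 or 11 without any single array and 5 when treat was used.

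Immediate early factors and the feedback genes of MAP kinase signalling moved both ways. Of 21 immediate early factors, 5 rose and 2 fell (33.3%, against 4.56% over all genes). FOSB read 7.16, 6.62 and 6.90 in VDR+VitD cells, against 5.60, 5.38 and 5.21 in VDR cells, and EGR1 14.03, 13.70 and 13.11 against 12.57, 12.80 and 12.04 (log2 fold change 1.14), while NR4A1, an orphan nuclear receptor, fell by 0.86. MAFF, JUN and JUND had 0.85, 0.63 and 0.65 and KLF6 -0.76, and the rises numbered 3 without VDR+VitD replicate 3 or VDR replicate 1 or 3. KLF6 lost its call without replicate 2 of VDR+VitD or of VDR cells (0.0574 and 0.0579 as adjusted p), which left NR4A1 as the fall. Of 23 feedback genes, DUSP5, SPRED2, DUSP1 and DUSP8 rose and DUSP6, CISH, SPRY4 and PHLDA1 fell (34.8% called). CISH averaged 4.84 in VDR+VitD, 6.10 in VDR and 5.22 in CONT cells. DUSP5, a phosphatase of nuclear ERK, read 9.92, 9.99 and 9.61 in VDR+VitD cells, against 7.58, 8.54 and 7.82 in VDR cells (1.86). Its mean in CONT cells was 8.74, above that in VDR cells. DUSP6, a phosphatase of cytoplasmic ERK, read 11.98, 12.13 and 11.84 in VDR+VitD cells, against 13.62, 13.88 and 13.57 in VDR cells (-1.71). Against VDR cells, the 2 phosphatases thus moved in opposite directions by similar amounts.

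Secreted signals and their receptors changed in about equal numbers up and down. Of 49 ligands, 6 rose and 6 fell, or 24.5% in all, against 4.56% over all genes. CSF1 read 13.60, 13.75 and 13.18 in VDR+VitD cells, against 10.14, 10.61 and 10.02 in VDR cells, PDGFA, a growth factor of mesenchymal cells, 9.95, 10.30 and 10.16 against 7.40, 7.65 and 7.47, and LIF, a cytokine of the interleukin-6 family, 9.44, 9.29 and 9.18 against 7.83, 8.20 and 7.28. Their log2 fold changes were 3.25, 2.63 and 1.53, and INHBB, an activin subunit, rose by 1.36. WNT11 and GDF15 had called rises of 1.02 and 0.74 that were lost without some single arrays. CXCL8, a neutrophil chemokine, read 6.79, 7.33 and 7.15 in VDR+VitD cells, against 8.20, 9.77 and 8.17 in VDR cells, a difference of -1.62 with the VDR array of experiment 2 above the rest. EDN1 had -1.02, INHBC -0.84, TNFSF10 -0.80 and DKK1 -0.61, and the falls numbered 3 without VDR+VitD replicate 1 or VDR replicate 2. EPO, erythropoietin, counted here with the hypoxia response, read 9.36, 8.81 and 9.70 in VDR+VitD cells, against 6.81, 6.56 and 6.77 in VDR cells (2.58).

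Of 42 measured receptors, 5 rose and 7 fell (28.6% in all). RTN4R read 9.73, 9.70 and 9.65 in VDR+VitD cells, against 5.32, 5.41 and 5.23 in VDR cells, and FGFR3, a fibroblast growth factor receptor, 10.85, 10.89 and 10.88 against 9.38, 8.30 and 8.53 (log2 fold change 2.14). TNFRSF1A, the main receptor of tumour necrosis factor, rose by 1.03. IL17RB and IL1RAP had called rises of 0.86 and 0.61, and the rises numbered 3 without VDR+VitD replicate 1 or 2 or VDR replicate 2 or 3. Besides AGTR1, TGFBR2, the type II receptor of TGF-beta, read 13.55, 13.79 and 13.37 in VDR+VitD cells, against 14.34, 14.76 and 14.43 in VDR cells (-0.94), FZD4, a Wnt receptor, fell by 0.91 and TNFRSF21 by 0.80. ACVR2A, LGR4 and LGR5 had -0.77, -0.68 and -0.66, each lost without 3 single arrays. In the NF-kappa-B pathway, NFKBIA, its inhibitor, read 14.10, 14.16 and 13.76 in VDR+VitD cells, against 11.68, 12.26 and 11.91 in VDR cells (2.06, standard error 0.15, adjusted p = 2.79e-06), and MYD88, the adaptor of Toll-like receptors, fell by 0.86. Of 20 measured genes of the pathway, 1 rose and 2 fell (15.0%, against 4.56% over all genes), TNFAIP3, given above, being the other fall, and the median was -0.18.

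Enzymes of drug metabolism answered gene by gene. Among the 51 measured genes with a CYP symbol, 6 rose and none fell (11.8%, against 4.56% over all genes). These were CYP24A1, CYP1A1, CYP3A5, CYP26A1, CYP19A1 (aromatase) and CYP4F12, of which CYP4F12 (0.59) lost its call without any 1 of 5 arrays. CYP3A5 read 9.22, 9.66 and 9.78 in VDR+VitD cells, against 6.40, 6.23 and 6.32 in VDR cells (log2 fold change 3.24), while CYP3A4, the main hepatic enzyme of the same subfamily, was not called and near the background. Likewise CYP1A2 and CYP1B1, from the family of CYP1A1, had 0.39 (adjusted p = 0.296) and 0.12 (adjusted p = 0.765) at values below 6. CYB5A, the electron donor of several P450s, rose by 0.80. Of 23 conjugating enzymes, SULT1C2 rose by 1.09, SULT1E1 read 4.72, 5.23 and 4.30 in VDR+VitD cells, against 6.68, 6.24 and 6.55 in VDR cells, and UGT2B10 and UGT2B7 fell by 0.98 and 0.89. UGT2B genes are close paralogs, so these 2 falls may share signal. Means in VDR+VitD, VDR and CONT cells were 9.52, 10.50 and 9.81 for UGT2B10 and 4.75, 6.49 and 5.49 for SULT1E1. Both were lower by less against CONT cells than against VDR cells. Of the conjugating enzymes 17.4% were called. SULT2A1, a bile acid and steroid sulfotransferase, had 0.45 (adjusted p = 0.101).

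In glucose metabolism G6PC1 read 11.04, 10.87 and 10.95 in VDR+VitD cells, against 7.94, 7.53 and 8.47 in VDR cells and 6.36, 6.17 and 6.18 in CONT cells (log2 fold change 2.97, standard error 0.17, adjusted p = 2.76e-07). PPARGC1A, a coactivator of gluconeogenesis, rose by 0.68, and the other 19 of 21 measured genes of gluconeogenesis and glycogen did not pass the test, among them PCK1 with 0.71 (adjusted p = 0.0547) and SLC37A4, the transporter that feeds G6PC1, with -0.48 (adjusted p = 0.129). The 2 falls among 24 measured genes of glycolysis and hexose uptake were both facilitative glucose transporters. SLC2A2, the hepatic form, read 9.21, 8.44 and 8.93 in VDR+VitD cells, against 10.32, 10.34 and 10.01 in VDR cells (-1.36), and SLC2A3 15.89, 15.65 and 16.09 against 16.83, 16.63 and 16.82 (-0.88). In amino acid metabolism 2 of 28 measured genes rose, HAL, which starts histidine breakdown, by 1.90 and MAT1A, which makes S-adenosylmethionine, by 1.40. Shares called were 9.52% for gluconeogenesis and glycogen, 8.33% for glycolysis and hexose uptake and 7.14% for amino acid metabolism, against 4.56% over all genes. With 2 calls each, these shares were not read as results about the pathways.

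Among 375 measured genes with an SLC symbol, 17 rose and 14 fell (8.27%, against 4.56% over all genes). SLC6A12 read 11.09, 11.06 and 10.73 in VDR+VitD cells, against 6.49, 7.10 and 6.84 in VDR cells, and SLC20A1 14.46, 14.43 and 14.28 against 11.52, 11.82 and 11.39. Among transporters of bile acids, organic ions and nucleosides, falls outnumbered rises, with 5 lower and 1 higher of 26 measured (23.1% called). SLC51B, the rise, read 10.29, 9.58 and 9.63 in VDR+VitD cells, against 6.87, 6.98 and 6.10 in VDR cells. SLC17A2 read 9.10, 8.90 and 8.37 in VDR+VitD cells, against 10.70, 11.38 and 10.52 in VDR cells, SLC22A9, an organic anion transporter, had -1.27 and SLC29A2, a nucleoside transporter, -0.88. ABCG5, a sterol exporter, and SLC17A1 had -0.85 and -0.72, and the falls of the list numbered 3 without VDR+VitD replicate 2. Of the carriers of amino acids and osmolytes, SLC38A3, a glutamine transporter of hepatocytes, rose by 1.00 and SLC7A5, a carrier of large neutral amino acids, by 0.73. SLC38A4, of the same list, had a called fall, -0.70, which was lost without replicate 1 or 2 of VDR+VitD or of VDR cells (0.0939 to 0.176 as adjusted p) and without the block.

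In glycerolipid and phospholipid metabolism 7 of 30 measured genes rose and 2 fell (9 of 30 in all, against 4.56% over all genes). PCTP, the phosphatidylcholine transfer protein, read 12.20, 12.01 and 12.14 in VDR+VitD cells, against 9.82, 9.20 and 9.59 in VDR cells, and MOGAT2, a monoacylglycerol acyltransferase, 10.77, 10.50 and 10.84 against 9.37, 8.84 and 9.48 (log2 fold change 1.47). AGPAT2, CDS1 and MOGAT1 had 1.35, 1.17 and 1.10 and DGAT2 and LPGAT1 0.69 and 0.68, and the rises numbered 4 without VDR+VitD replicate 3. The falls were PLD1 and PLA2G12B, phospholipases, with -0.80 and -0.69, and numbered 0 without VDR+VitD replicate 2 or VDR replicate 1 and 1 without VDR+VitD replicate 1 or VDR replicate 2. AGPAT2 and MOGAT1 were uneven across experiments. Their VDR+VitD arrays read 7.29, 7.37 and 8.24, and 4.89, 4.69 and 6.06, against 6.17, 6.72 and 5.97, and 4.19, 4.33 and 3.81 in VDR cells, with experiment 3 highest in both. Genes of this list had also been selected by the study on these samples in part, so its count is likewise not independent evidence of a direction. In fatty acid oxidation CPT1A, the carnitine palmitoyltransferase of the outer mitochondrial membrane, rose by 0.90 and CPT2, that of the inner membrane, fell by 0.69. CPT2 averaged 7.63 in VDR+VitD, 8.32 in VDR and 7.96 in CONT cells, so it was lower by less against CONT cells. Its call was lost without experiment 1. Among secreted plasma proteins, 5 of 57 measured genes rose and 2 fell, with APOA5, an activator of lipoprotein lipase, at 9.62, 8.93 and 9.72 in VDR+VitD cells, against 7.92, 7.27 and 7.89 in VDR cells, and HAMP, the iron hormone hepcidin, at 12.85, 12.88 and 13.40 against 14.21, 14.59 and 14.38. In all, 12.3% of the measured plasma protein genes were called, against 4.56% over all genes. The rises among them numbered between 3 and 7 without 1 array.

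None of 38 measured genes of the cell cycle and replication was called (6 had an unadjusted p under 0.05), none of 22 of oxidative phosphorylation (1) and none of 14 ribosomal genes (0), with medians between -0.03 and 0.04. Of 23 genes of endoplasmic reticulum stress, DDIT4, an inhibitor of mTOR, rose by 0.83 and ERN1, a sensor of unfolded proteins, fell by 1.11, and of 27 interferon-response genes OAS1 alone was called (-0.83). These calls made up 8.7% and 3.7% of the lists, against 4.56% over all genes. ERN1 averaged 10.15 in VDR+VitD, 11.26 in VDR and 10.70 in CONT cells. CCN2, ANKRD1 and THBS1 fell among 26 cytoskeletal and matrix targets of SRF, YAP and TGF-beta, where none rose (11.5% called) and the median was 0.05. CCN2 read 11.11, 10.98 and 11.55 in VDR+VitD cells, against 13.34, 13.52 and 13.23 in VDR cells, while CCN1 and TAGLN of the same list had 0.34 (adjusted p = 0.228) and 0.37 (adjusted p = 0.157). Of 43 genes of junctions, adhesion and extracellular matrix, 4 rose and 3 fell (16.3%, against 4.56% over all genes), and the rises numbered 2 without VDR replicate 1. Occludin (OCLN), the integrin ITGA2 and CLDN1, a claudin, fell by 0.92, 0.90 and 0.74, and LOXL4, TIMP3, an inhibitor of matrix proteases, CLDN2 and COL18A1 rose, TIMP3 by 1.14. Of 25 genes of p53 and apoptosis, 3 rose and 1 fell (16.0%). MCL1 and BCL2L1, inhibitors of apoptosis, rose by 0.93 and 0.73 and MDM2, which degrades p53, by 0.82. BCL2L1 averaged 13.77 in VDR+VitD, 13.04 in VDR and 13.69 in CONT cells, so VDR+VitD cells lay near CONT cells. Its call was lost without experiment 2. TP53INP1 had the fall, -0.65, which was lost without VDR+VitD replicate 1 or 3 or VDR replicate 1 or 3 (0.0874 to 0.158 as adjusted p) and without the experiment as a block. It averaged 6.91 in VDR+VitD, 7.56 in VDR and 7.12 in CONT cells. Of 11 reference genes ACTB alone was called, with 0.60, and it lost its call without any 1 of 5 arrays and without the block.

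Many called genes lay next to each other on chromosomes. Of the called genes, 170 (21.1%) had a called gene as a neighbour in the order of the table, against 1376 (8.16%) of the genes not called. Genes that rose had a rising neighbour in 104 cases (21.2%), against 4.89% of all other genes, and genes that fell a falling one in 31 cases (9.84%), against 3.37%. Of the 93 pairs of called neighbours, 58 rose together, 16 fell together and 19 moved in opposite directions. No test was made of these shares, and paralogs that share probe sequence can contribute to them. The metallothionein genes, which lie side by side, gave several of the rising pairs, and SLCO4A1 paired with its antisense gene SLCO4A1-AS1. The genes not called also include dim genes, of which few were called, and the part of expression level in the shares was not tested. The pair with the largest smaller change was LEFTY1 and LEFTY2, near-identical inhibitors of nodal signalling, which read 9.41, 9.37 and 9.66, and 8.98, 9.05 and 8.78 in VDR+VitD cells, against 7.23, 7.03 and 6.97, and 6.58, 6.89 and 7.18 in VDR cells. Their signals cannot be taken as separate. AOC3, an amine oxidase, rose by 1.95 beside G6PC1, SERPINB1 by 1.62 beside SERPINB9, GSDMB by 1.92 beside ORMDL3, a regulator of sphingolipid synthesis (1.45), and MCEE, of propionate breakdown, by 1.26 beside MPHOSPH10 (1.39). KITLG and DUSP6 fell together, by 2.58 and 1.71.

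Protein-coding genes made up 485 of the 491 rises and 310 of the 315 falls. Of 11 measured microRNA genes, 2 were called, both higher, while 4.56% of all genes were called. They were picked out after their values were seen, and with 2 calls nothing was read from the count about microRNA genes. MIR4651 read 14.88, 14.86 and 14.74 in VDR+VitD cells, against 13.25, 13.11 and 12.95 in VDR cells (log2 fold change 1.72, standard error 0.13, adjusted p = 2.16e-06), and MIR6809 10.45, 10.52 and 10.66 against 8.97, 9.21 and 9.22 (1.41, standard error 0.16, adjusted p = 1.06e-04). The hairpin of MIR4651, at chr7:75915197-75915269 (GRCh38.p14, RefSeq), lies inside POR, the electron donor of microsomal P450s, and that of MIR6809, at chr2:217900513-217900628, inside TNS1. The annotation of the MIR4651 cluster also lists a coding accession, and POR was not measured under its own symbol, so the RNA that these probes read is not settled. The mature sequences from RefSeq are printed with the seed, bases 2 to 8, in capitals, since the seeds show that the miRNAs share none.
hsa-miR-4651: cGGGGUGGgugaggucgggc
hsa-miR-6809-5p: uGGCAAGGaaagaagaggauca
hsa-miR-6809-3p: cUUCUCUUcucuccuucccag
These values give the probes' signal, not the level of the mature miRNAs.

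The called genes had differences of like size in the 3 experiments. They were selected on the mean of the same experiments, so this likeness follows in part from the selection. The median difference of the 491 rises was 1.00, 0.99 and 1.07 in experiments 1, 2 and 3, and that of the 315 falls -0.80, -0.91 and -0.74. Differences over 1.5-fold were reached by 409, 419 and 432 of the rises and by 243, 272 and 230 of the falls. The called genes that varied most between experiments were TBX1, MOGAT1, LGALS9, PRODH2 and AGPAT2. TBX1, a developmental factor, read 7.76, 6.73 and 6.87 in VDR+VitD cells, against 4.68, 5.38 and 5.78 in VDR cells, so that its difference was largest in experiment 1. LGALS9, a galectin, read 5.09, 5.63 and 6.12 in VDR+VitD cells, against 4.88, 4.61 and 4.12 in VDR cells, with the largest difference in experiment 3, and lost its call without VDR+VitD replicate 2 or 3 or VDR replicate 2 or 3 (0.0724 to 0.133 as adjusted p). Markers of other liver cell types are given as list means. The mean of 9 endothelial markers lay between 4.55 and 4.61 in VDR+VitD cells, against 4.55 to 4.64 in VDR cells, that of 8 stellate cell markers between 6.29 and 6.42, against 6.28 to 6.49, and that of 8 bile duct markers between 9.70 and 9.76, against 9.68 to 9.82. The mean of 10 macrophage markers was 7.47 to 7.49 in VDR+VitD cells, against 7.03 to 7.17 in VDR cells and 7.14 to 7.21 in CONT cells. CD14 was the only called member. Over all 9 arrays, 6 of the 10 lay below the median gene: CD163, MARCO, PTPRC, ADGRE1, VSIG4 and C1QA. LYZ (17.59), CD68 (11.07), CD14 (6.81) and CSF1R (6.60) lay above it. The part of these markers in the result was not tested.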

How the data were processed

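RNA from 9 HepG2 cultures (VDR+VitD, VDR and CONT, 3 each) was hybridised to Clariom S arrays. The deposited values are log2 values made by the authors by RMA in Transcriptome Analysis Console 4.0.2, per the submitters' processing notes, which background-corrects, quantile-normalizes and summarises probes per transcript cluster, so that a shift shared by most genes would not be seen. The methods of the study name an Entrez-based probe annotation and the removal of dim or little-varying probes, and the study kept 8000 genes by interquartile range, which was run here only as an alternative. For the genome build of the array, the sources used here give none. Of 21448 clusters, 17709 had 1 symbol in the platform annotation, all matched to RefSeq by Entrez ID, and 3739 had none. Clusters of 1 symbol were averaged (20 genes), which left 17687 genes.

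The test was lmFit and eBayes of limma 3.58.1 under R 4.3.3 on all 9 arrays, with the group and the experiment number as factors, the contrast VDR+VitD minus VDR, and Benjamini-Hochberg adjustment over the 17687 genes. The experiment was a block because the titles number 3 independent experiments. Deviations from group means correlated between arrays of the same experiment with r between 0.042 and 0.145 (9 pairs) and between arrays of different experiments with r between -0.0959 and 0.0102 (18 pairs). Replicates are separate cultures per the methods of the study. In 10 simulated data sets of this contrast, of 17687 genes with 200 changed, the fit called 47.9% of 1.5-fold, 99.4% of 2-fold and 100% of 3-fold changes. A call needs an estimate past 1.5-fold, so the share for 1.5-fold changes is largely set by that rule. On average 7.1 unchanged genes were called, with noise drawn independently for each value.

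Named genes were the 30 largest rises and 30 largest falls among called genes moving the same way in 3 of 3 experiments, up to 4 called members of each list (the member with the lowest p where none was called), the vitamin D genes, the 5 called genes most variable between experiments, 6 pairs of called neighbours and, of the 60 genes, those with a repeat in the promoter. Other list members, CA5A and the miRNA genes were named after their values were seen. The genes and the 41 lists (933 measured genes) were chosen with earlier results of these data known. Alternatives were no block, only 6 arrays, leaving out arrays or experiments, filters on level or variation (8000 genes by interquartile range), other variance priors, array weights, other normalizations, a test against the 1.5-fold threshold, no fold threshold and the highest cluster per gene.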

Additional observations from a re-analysis of the deposited data

Results flagged for a closer look

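Of the 3739 transcript clusters without a gene name in the annotation used, which none of the comparisons above contain, 111 were called with VitD in VDR cells by the same thresholds in a limma fit of all clusters, 67 higher and 44 lower. Of the named genes, 806 of 17687 (4.56%) were called in the main fit, a larger share than among these clusters. The largest rise among them read 11.08, 11.35 and 11.04 in VDR+VitD cells, against 7.00, 7.22 and 6.89 in VDR cells, a log2 fold change of 4.12. What these clusters transcribe is not analysed here.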

How the results depend on the processing

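Without the replicate block, 735 genes were called, 464 higher and 271 lower, of which 730 were also called with the block, and this pairing moved the totals by less than 1.5 times. Among the counts per gene list and direction, those that moved by over 1.5 times without the block held the calls of TNFAIP3 (in 2 lists), SLC38A4, TP53INP1 or ACTB, which were lost. Leaving out 1 array or 1 experiment gave between 520 and 802 called genes, 369 to 491 higher and 151 to 314 lower, with the lowest counts without replicate 2 of all groups. With that experiment left out 71.0% of the called genes were higher, against 60.9%. The treat test of limma, with 1.5-fold as its bound, called 204 genes, 168 higher and 36 lower, or 82.4% higher. With the adjusted p alone, 1007 genes were called. Filters, variance priors, array weights, other normalizations and the choice of cluster gave between 697 and 843. Of the 137 called genes fixed by the naming rule, 89 were called under each of the 23 alternatives that tested them (21 of the 137 fell below the filter on level) and none changed direction. With treat 48 lost their call, and 19 did without some array or experiment. The 4 genes near 0 that were never called changed sign when arrays or experiments were left out: CUBN (-0.031 to 0.084), CYP27B1 (-0.12 to 0.18), LRP2 (-0.15 to 0.19) and PDIA3 (-0.10 to 0.046). The cause of these shifts was not tested. No depth can be given for arrays, and 3 arrays per group limit which changes under 2-fold could be called.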
